A study of Mus musculus with 14 samples.

Results

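Pigment epithelium and melanin genes were followed through RNA-seq libraries of mouse retina. The set was given as 10 gene symbols: Mitf, Tyr, Tyrp1, Dct, Pmel, Mlana, Slc45a2, Oca2, Best1 and Ttr. Rows of the count tables carrying those symbols were taken, which gave 8 of 19337 genes at P0, the day of birth, and 4 of 11613 genes at P22. Mlana and Slc45a2 were matched at neither age, and Tyrp1, Pmel, Oca2 and Best1 were matched at P0 only, so Dct, Tyr, Ttr and Mitf were the 4 genes measured at both ages. The set was chosen by a measured value, the lower Dct level of the P22 knockout. Differences between genotypes at P22 are therefore given for these genes as a description, without a test.

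The study compared retinas of mice heterozygous (het, Peanut +/-) or knockout (KO, Peanut -/-) for Peanut, a long noncoding RNA named in the series title together with neurogenesis and rod photoreceptor differentiation. Each genotype had 4 libraries at P0, and at P22 there were 2 hets and 4 KOs. The controls thus carry 1 mutant copy, and wild-type retina was not analysed here. The labels do not say whether each library came from its own animal, so p-values measure only the spread between these samples, which may be technical. P0 and P22 libraries were made with different kits, and no level is compared across ages for that reason.

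The P0 libraries held 15028865 to 19833083 reads. At P22 het replicate 1 held 1819688 reads, and the others 11044462 to 22813199. A further library stood apart at P0: KO replicate 3 lay at -24.0 on the first principal component (43.0% of the variance), beside the hets at -23.4 to -5.08, while the other KO libraries lay at 19.8 to 26.5. All 10 rod photoreceptor markers were present at both ages, and their summed level at P22 was 40786.4 to 79985.7 CPM (counts per 1000000 reads of the library). The targeted RNA was not identified by name. Gm11454, a noncoding RNA gene, averaged 1.39 CPM in the P0 hets and 0 in every P0 KO library.

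The neural retina makes almost no melanin. Pigment is made in the retinal pigment epithelium, a sheet of cells behind the photoreceptors that recycles retinoids and takes up shed photoreceptor tips, in the pigmented layers of the ciliary body and iris, and in melanocytes of the choroid. MITF, a basic helix-loop-helix leucine zipper transcription factor, drives genes of melanin synthesis in these cells through E-box sequences in their promoters. Tyrosinase (Tyr) carries out the first step of melanin synthesis, and dopachrome tautomerase (Dct) and tyrosinase-related protein 1 (Tyrp1) act on later intermediates.

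The promoters of the 3 melanin enzyme genes are printed to show where such an E-box sequence lies in them. RefSeq promoters (GRCm38.p6, 250 bases before to 50 after each gene's start) were matched for 6 of the 10 genes, as 8 promoters: 3 for Mitf and 1 each for Tyr, Tyrp1, Dct, Best1 and Oca2. The motif TCATGTG, searched on both strands, was found in the promoters of Tyr, Tyrp1 and Dct, and in 3.77% of all 32851 promoters of the same length. The following 29-base windows run 5′ to 3′ on the gene's own strand, with the motif in capitals.
Tyr (chr7:87493517-87493545, minus strand): gaaaaagttagTCATGTGctttgcagaag
Tyrp1 (chr4:80834155-80834183, plus strand): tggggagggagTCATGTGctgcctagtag
Dct (chr14:118052380-118052408, minus strand): tgcacttagggTCATGTGctaacaaagag
The motif began 22 bases before the RefSeq start of Tyr, 47 before that of Tyrp1 and 151 before that of Dct. GENCODE starts Tyrp1 further upstream, so that its window lies within the annotated gene. The run of identical bases around the motif was 11 long between Tyr and Tyrp1 (AGTCATGTGCT) and 10 long between Dct and either of them (GTCATGTGCT). The shorter motif CATGTG, which TCATGTG contains, was found in 14.2% of all promoters and in those of Tyr, Tyrp1, Dct and Oca2. CACGTG was found in 7.15% of all promoters and in 0 of the 8. A match describes these letters and does not show binding.

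The whole 250 bases before the starts of Tyr and Dct are given because these are the enzyme genes measured at both ages. Capitals mark TCATGTG or its reverse complement CACATGA.
Tyr (chr7:87493513-87493762, minus strand): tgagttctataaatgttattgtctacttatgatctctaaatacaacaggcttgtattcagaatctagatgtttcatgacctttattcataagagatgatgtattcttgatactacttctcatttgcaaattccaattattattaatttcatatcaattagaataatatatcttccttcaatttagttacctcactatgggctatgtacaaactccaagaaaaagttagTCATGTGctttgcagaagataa
Dct (chr14:118052247-118052496, minus strand): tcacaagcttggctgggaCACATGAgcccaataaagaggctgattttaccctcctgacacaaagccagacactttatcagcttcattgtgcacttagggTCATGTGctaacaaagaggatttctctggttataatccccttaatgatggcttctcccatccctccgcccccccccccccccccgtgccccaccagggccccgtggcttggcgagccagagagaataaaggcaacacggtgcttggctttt
Dct carried the motif on both strands and Tyr on its own strand only.

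In the P0 retina Pmel was the most abundant of the genes per length and Oca2 the least. Pmel, whose product forms the fibrils on which melanin is laid down, averaged 19.5 CPM per kilobase of exon over the 8 libraries (9.04 to 28.9). Ttr, the carrier of thyroxine and of the retinol-binding protein, averaged 6.05 (2.09 to 10.8) on the same per-length scale. It overlapped the lower end of Pmel. Tyrp1 at 3.30 and Dct at 2.81 overlapped in range, as did Mitf at 1.08, Best1 at 0.992 and Tyr at 0.687. Oca2, a melanosomal membrane protein that sets the organelle's pH, averaged 0.407. At P22 the order per length was Ttr at 57.4, Dct at 3.98, Mitf at 1.87 and Tyr at 1.04. Ttr lay above the other genes in every P22 library, and the ranges of Dct, Mitf and Tyr overlapped.

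At P0 none of the 8 genes passed the test for a genotype difference, and 6 of them rose and fell together from library to library instead. EdgeR's quasi-likelihood test was fitted across all 19337 genes, and 0 of the 8 had a Benjamini-Hochberg adjusted p under 0.05, where 0.00517% of all genes did. At an unadjusted p under 0.05 the count was also 0 of 8. The share of all genes at that unadjusted threshold is not given here for either age. DESeq2's Wald test called 0 of the 8, where it called 1 of all 19337 genes. Limma-voom with sample weights also called 0, where it called 2150 of all genes. KO and het libraries overlapped for all 8, and they did not overlap in 2.32% of all genes (1.2% with KO higher, 1.12% with KO lower). The median log2 fold change (KO minus het) was 0.20 over the 8 and 0.028 over all genes.

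Tyr reads were sparse at P0, with 33 to 146 per library. Its level was 2.16, 5.32, 4.69 and 6.08 CPM in het replicates 1 to 4 and 6.50, 7.53, 2.32 and 4.46 CPM in KO replicates 1 to 4. Het replicate 1 and KO replicate 3 were the lowest, and the groups overlapped almost completely (log2 KO/het 0.15 ± 0.32 SE, adjusted p = 0.849 by edgeR).

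Tyrp1 had the largest difference of the 8 genes. It was at 5.29, 9.92, 8.17 and 8.43 CPM in the hets and at 15.0, 12.1, 6.25 and 9.52 CPM in the KO libraries. KO replicates 1 and 2 lay above all hets, while KO replicates 3 and 4 lay within their range (log2 KO/het 0.39 ± 0.23 SE, adjusted p = 0.529 by edgeR). Without KO replicate 3 the log2 fold change of Tyrp1 was 0.53, with an edgeR adjusted p of 0.0736.

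Dct was at 7.71, 19.5, 16.3 and 15.8 CPM in the P0 hets and at 21.4, 24.7, 12.3 and 14.8 CPM in the P0 KO libraries. Again het replicate 1 was lowest of all, and KO replicates 1 and 2 were highest (log2 KO/het 0.28 ± 0.24 SE, adjusted p = 0.627 by edgeR). Dct at P0 thus differed in the direction opposite to P22, by an amount that did not pass the test. Its log2 fold change at P0 was 0.069 without het replicate 1, 0.063 without KO replicate 2 and 0.37 without KO replicate 3.

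The melanosome genes followed the enzymes. Pmel was at 20.7, 48.2, 46.5 and 46.4 CPM in the hets and at 62.5, 66.2, 30.9 and 36.7 CPM in the KO libraries. Het replicate 1 lay far below the other hets, and the KO libraries fell into a high pair and a low pair (log2 KO/het 0.25 ± 0.26 SE, adjusted p = 0.677 by edgeR). The log2 fold change of Pmel was 0.035 without het replicate 1, 0.037 without KO replicate 2, 0.13 without KO replicate 1 and 0.36 without KO replicate 3. Oca2 was at 0.653, 1.61, 1.56 and 2.29 CPM in the hets and at 2.32, 2.58, 0.878 and 0.998 CPM in the KO libraries, from 10 to 50 reads. It overlapped between groups with the same libraries at the bottom (log2 KO/het 0.11 ± 0.39 SE, adjusted p = 0.915 by edgeR). Pmel overlaps Cdk2 and Dgka on the opposite strand in GENCODE, and Oca2 overlaps an antisense gene, as does Dct. The use of strand in counting is not given in the sources used here, so reads from both strands cannot be told apart there. Cdk2 ranged only from 45.2 to 60.5 CPM over the P0 libraries, and Dgka from 9.93 to 13.2 CPM.

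Ttr was at 2.48, 6.34, 8.02 and 8.31 CPM in the P0 hets and at 12.8, 9.23, 4.44 and 5.72 CPM in the P0 KO libraries. Its 5.16-fold range between libraries was the widest of the 8 genes, from het replicate 1 to KO replicate 1 (log2 KO/het 0.31 ± 0.34 SE, adjusted p = 0.693 by edgeR). Omitting 1 library moved the log2 fold change of Ttr to 0.018 (KO replicate 1), 0.052 (het replicate 1), 0.20 (KO replicate 2) or 0.47 (het replicate 4).

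Mitf and Best1 shared only the order of the KO libraries, with replicates 1 and 2 above replicates 3 and 4, and not that of the hets. Mitf was at 6.60, 8.55, 5.45 and 5.33 CPM in the hets and at 7.73, 7.17, 6.56 and 6.39 CPM in the KO libraries, a 1.60-fold range in all (log2 KO/het 0.085 ± 0.16 SE, adjusted p = 0.818 by edgeR). Best1 encodes bestrophin, a chloride channel of the pigment epithelium. It was at 2.55, 2.75, 3.78 and 1.66 CPM in the hets and at 2.45, 3.82, 1.86 and 1.60 CPM in the KO libraries (log2 KO/het -0.16 ± 0.29 SE, adjusted p = 0.813 by edgeR). Het replicate 1, the lowest library for the other 6 genes, was near the middle for both of these.

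**Figure D1:**
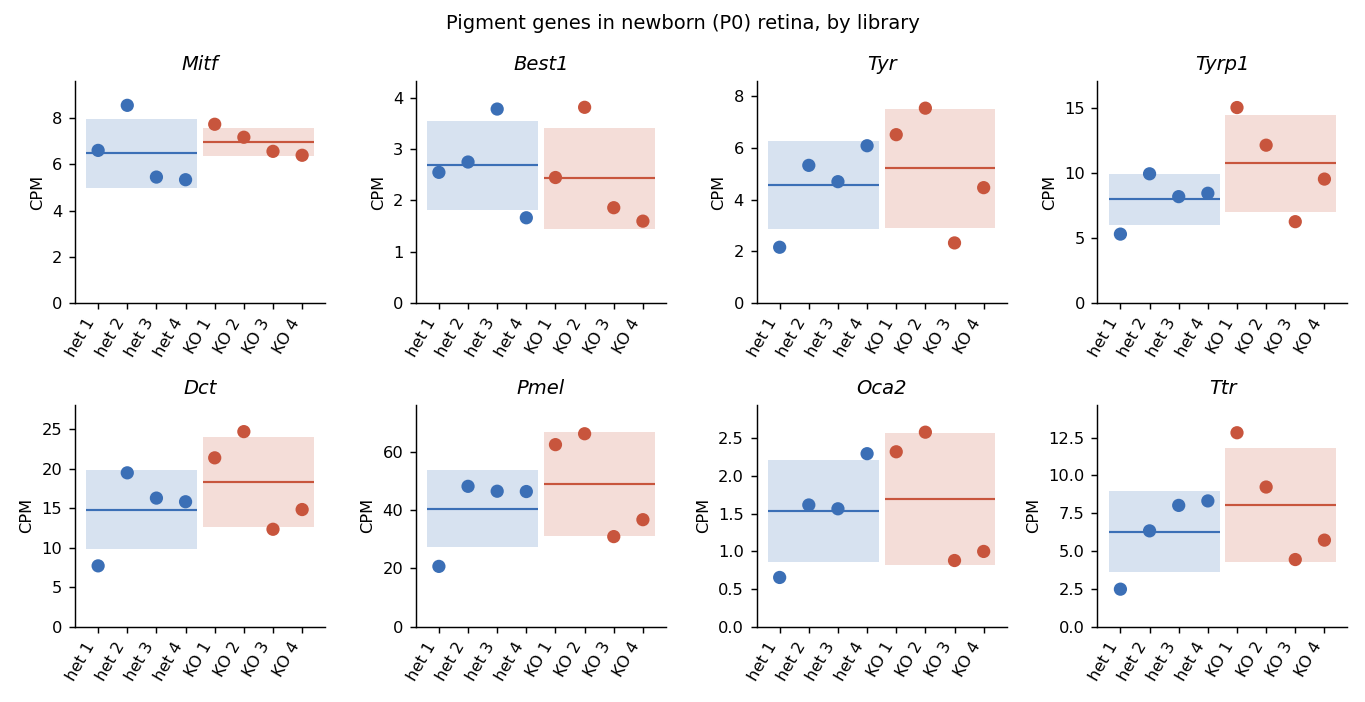
Level in CPM (y axis) of the 8 genes in each P0 library (x axis), het in blue and KO in red, with lines at the group means and bands of ± 1 SD (n = 4 each). Het replicate 1 is the lowest library for Tyr, Tyrp1, Dct, Pmel, Oca2 and Ttr, and KO replicates 1 and 2 lie above KO replicates 3 and 4 for all 8 genes.

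Library extremes make the common pattern plain. Het replicate 1 was the lowest of the 8 libraries in 6 of the 8 genes, and it was the lowest in 9.98% of all genes. Among the KO libraries, replicate 3 was the lowest for Tyr, Tyrp1, Dct, Pmel, Oca2 and Ttr alike, and for 50.7% of all genes. The summed level of the 8 genes ran from 48.2 to 102 CPM in the hets and from 65.6 to 133 CPM in the KO libraries. Ratios among the genes that moved together spanned less than the levels did. Pmel reads over Dct reads ran only from 2.47 to 2.93 at P0, a 1.19-fold range, while Dct itself spanned 3.20-fold between libraries. Tyrp1 over Dct spanned 1.43-fold, Ttr over Dct 1.86-fold, and Dct over Tyr 2.04-fold. Mitf over Dct spanned 2.95-fold, more than Mitf itself at 1.60-fold.

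All 28 pairs of the 8 genes were correlated across the 8 P0 libraries on the scale of log2(CPM + 1), with exact two-sided permutation tests adjusted over the 28 pairs. The 15 pairs among Tyr, Tyrp1, Dct, Pmel, Oca2 and Ttr had Pearson r of 0.80 to 0.98 and Spearman rho of 0.81 to 1.00, and all 15 had an adjusted exact p under 0.05 by either measure. By r the closest pair was Dct with Pmel (r = 0.98, exact permutation p = 2.5e-05, adjusted exact p = 0.000347). Its rho was 1.00 (exact permutation p = 5e-05), as was that of Tyr with Oca2. By r the loosest of the 15 was Tyrp1 with Oca2 (r = 0.80, exact permutation p = 0.0177, adjusted exact p = 0.0330). Its rho was 0.86 (exact permutation p = 0.0107), and by rho Tyrp1 with Ttr was the loosest, at 0.81. In the 13 pairs with Mitf or Best1, r ran from 0.087 to 0.44 and the smallest adjusted exact p was 0.480. The 15 pairs were thus the only ones of the 28 that passed, so passing in all 15 is no separate test of this grouping. The share of all gene pairs that pass over these 8 libraries is not given here. Whether 15 of 28 is more than other genes would show was therefore not tested.

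Leaving out the 2 libraries farthest from the median of the first gene of a pair, r stayed between 0.64 and 0.94 in the 15 pairs. Without het replicate 1, 9 of those 15 pairs kept an adjusted exact permutation p under 0.05. Over the 7 libraries r of all 15 pairs then ran from 0.69 to 0.96. Leaving out any other library kept 14 or 15. Each point of these correlations is a whole library, so the genes share its tissue, depth and preparation.

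**Figure D2:**
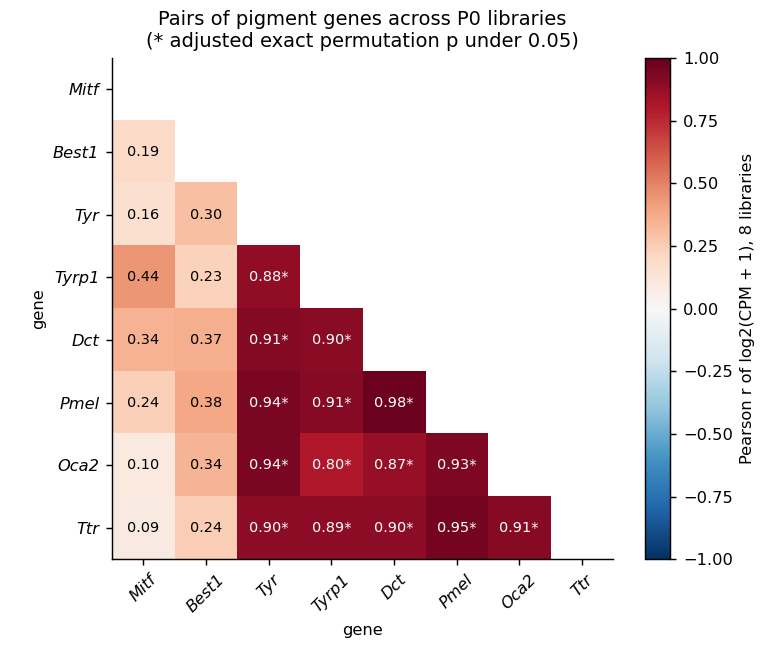
Pearson r of log2(CPM + 1) over the 8 P0 libraries for each pair of genes (both axes), with stars where the adjusted exact permutation p was under 0.05. The 15 pairs among Tyr, Tyrp1, Dct, Pmel, Oca2 and Ttr range from 0.80 to 0.98, and pairs with Mitf or Best1 stay at or below 0.44.

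Other genes were ranked by how closely they followed the mean deviation of the 8 genes across P0 libraries, after removal of the genotype means. Against the mean of the other 7, r was 0.86 to 0.97 for the 6 genes above, 0.42 for Best1 and 0.21 for Mitf. Of 18801 other genes with a mean of at least 1 CPM, 4.28% had r of at least 0.7. The 10 closest were Col8a1 (0.98), 2310061I04Rik, Fank1, Trpm1, Gsg1l, D330023K18Rik, Gm37422, Cdh3, Tmem268 and F830212C03Rik (0.96). Trpm1, a cation channel of melanocytes and ON bipolar cells, ran from 4.31 CPM in het replicate 1 to 16.4 CPM in KO replicate 2. Col8a1, a chain of type VIII collagen, ran from 13.1 to 48.5 CPM between the same libraries. The ranking rests on 8 libraries, and when any of them was left out, 1 to 5 of these 10 genes remained among the closest 10.

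Several other genes of the pigment epithelium were among the close ones. Of 18 other pigment epithelium genes, 6 had r of at least 0.7: Cdh3 (P-cadherin, 0.96), Stra6 (the receptor for retinol-binding protein, 0.93), Krt8 (a simple-epithelium keratin, 0.92), Clic6 (0.90), Rgr (0.75) and Rlbp1 (0.74). Their median r was 0.45, against 0.16 over all other genes ranked. Higher medians were found for connective tissue and pericyte genes (0.72), lens (0.68), blood (0.66) and microglia (0.48), so a close median was not particular to the pigment epithelium list. Rgr, a retinal-binding opsin, and Rlbp1, the cellular retinaldehyde carrier, are also made by Müller glia. Of 18 other melanosome genes 2 had r of at least 0.7, Gpnmb (0.92) and Rab27a (0.74), and the median was -0.12. The 9 MITF relatives and regulators had a median of -0.40, with 0 at or above 0.7.

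Genes of the lists for other cells and tissues were spread. Among melanocyte lineage genes, r was 0.73 for Sox10, 0.46 for Mc1r, 0.24 for Ednrb, -0.48 for Erbb3 and -0.54 for Kit. Slc4a5 (0.95) and Wls (0.94) of the choroid plexus and ciliary epithelium list were close, and Aqp1 (-0.19) of the same list was not. Col1a1, Col1a2 and Col3a1, the fibrillar collagens of connective tissue, had r of 0.72 to 0.78. The summed connective tissue and pericyte list ran from 24.8 to 65.2 CPM in the hets and from 37.5 to 72.0 CPM in the KO libraries. At or above 0.7 there were 3 of 5 genes of that list, 2 of 5 lens genes, 1 of 4 blood genes, 1 of 5 microglia genes and 2 of 8 Müller glia genes. The summed lens list ran from 15.0 CPM in het replicate 1 to 20.4 CPM in the hets and from 16.3 CPM in KO replicate 3 to 64.1 CPM in KO replicate 2. The summed blood list was also lowest in het replicate 1, at 17.4 CPM, against 27.2 to 36.5 CPM in the other libraries. The Müller glia list had a median r of -0.45, the choroid and vessel endothelium list -0.24 and the rod list 0.36. The lists are named after cell types, and the cells that made these RNAs at P0 were not identified. Genes of these lists named here for their r were chosen after the values were seen. The part that neighbouring tissue played in the level of the pigment genes was not tested.

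**Figure D3:**
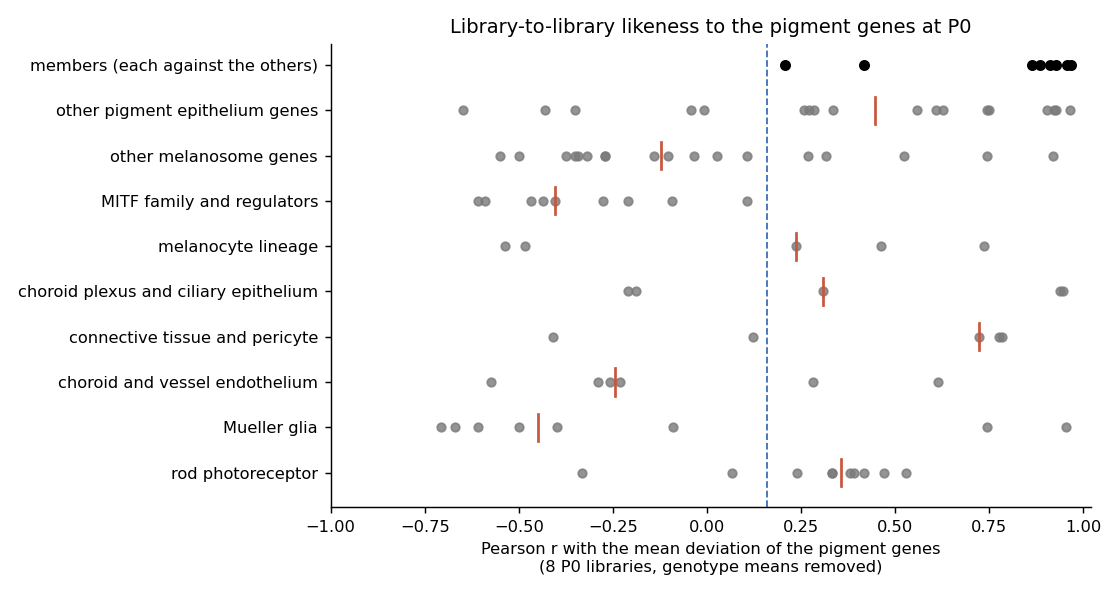
Pearson r (x axis) of each gene's P0 deviations with the mean deviation of the pigment genes over 8 libraries, genotype means removed, by gene list (y axis). Black points are the 8 genes, each against the other 7, grey points are list genes, red ticks are list medians and the dashed line is the median of all other genes (0.16). The median of the other pigment epithelium genes was 0.45 and that of the other melanosome genes -0.12.

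At P0 edgeR's quasi-likelihood test called none of the measured genes of the 13 other lists between genotypes. The 18 other pigment epithelium genes had a median log2 fold change of 0.12, with 13 above 0, and the 18 other melanosome genes had a median of -0.019, with 9 above 0. At an unadjusted p under 0.05 by edgeR's quasi-likelihood test there were 2 of 18 and 0 of 18. DESeq2 called 0 in both lists, and limma-voom with sample weights called 2 lower pigment epithelium genes, where it called 8.66% of all genes lower. Without KO replicate 3, edgeR called 2 pigment epithelium genes, 1 melanosome gene and 4 of 9 MITF relatives and regulators, all lower in KO, where it called 12.6% of all genes lower.

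At P22 the level of Dct was lower in every KO library than in either het. Dct was at 46.7 and 29.2 CPM in the hets and at 19.6, 15.9, 7.79 and 21.6 CPM in KO replicates 1 to 4, or 38.0 ± 12.4 CPM (SD, n = 2) against 16.2 ± 6.10 CPM (SD, n = 4). The log2 fold change was -1.27 (SE 0.32). This is the difference for which the set was proposed, so it is given without a test. KO libraries below both hets were found in 12.3% of all genes, and edgeR's test called 11.2% of all genes at this age (4.74% higher and 6.41% lower in KO). The het values themselves stood apart: het replicate 1 had 85 Dct reads, which by counting error alone allows 37.3 to 57.8 CPM (exact Poisson interval, 95%), above the 29.2 CPM of het replicate 2. In a bulk sample, fewer cells of a type and less RNA per cell cannot be told apart.

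Without het replicate 1 the log2 fold change of Dct was -0.98, and without KO replicate 3, the lowest KO library, it was -1.06. With any 1 of the 6 libraries omitted it lay between -1.66 and -0.98. In the authors' deposited table the log2 fold change of Dct at P22 is -1.13.

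Tyr and Ttr had the same libraries at the extremes but overlapped between genotypes. Tyr was at 17.6 and 6.88 CPM in the P22 hets and at 7.08, 4.50, 2.72 and 5.50 CPM in the KO libraries. Het replicate 1, with 32 Tyr reads, lay far above every other library, and KO replicate 1 lay above het replicate 2. The log2 fold change of Tyr was -1.11 (SE 0.40), and -0.60 without het replicate 1. Ttr was at 140 and 63.2 CPM in the hets and at 59.7, 71.5, 18.2 and 56.6 CPM in the KO libraries. KO replicate 2 lay above het replicate 2, and KO replicate 3 lay far below the rest. The log2 fold change of Ttr was -1.04 (SE 0.43), and -0.43 without het replicate 1.

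Mitf had another order of libraries. It was at 9.89 and 9.78 CPM in the P22 hets and at 15.5, 12.9, 10.4 and 11.0 CPM in the KO libraries, every KO library above both hets on this scale, which 31% of all genes also showed. The log2 fold change of Mitf was 0.21 (SE 0.22). Scaling to library totals in place of TMM moved it to 0.35 and moved the median of all genes from 0.036 to 0.17.

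Het replicate 1 was the highest library and KO replicate 3 the lowest for Dct, Tyr and Ttr, a pairing of extremes found in 1.73% of all 11613 genes. It was looked at after the values were seen. Over the 6 libraries Dct spanned 6.00-fold, Tyr 6.47-fold and Ttr 7.67-fold, while the ratio of Dct to Tyr spanned 1.60-fold and that of Ttr to Dct 2.08-fold.

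Among the other pigment epithelium genes, 12 of 20 were measured at P22, and by edgeR's quasi-likelihood test 2 rose and 1 fell in KO, where 11.2% of all genes were called. Their median log2 fold change was -0.092, against 0.036 over all genes. Rlbp1 rose from 102 to 192 CPM (log2 KO/het 0.78 ± 0.15 SE, adjusted p = 0.0116 by edgeR). Trpm3, a cation channel that is also expressed in Müller glia, rose by 0.49 (SE 0.13, edgeR adjusted p = 0.0330). Krt18, a simple-epithelium keratin, fell from 70.8 to 44.3 CPM (log2 KO/het -0.78 ± 0.20 SE, adjusted p = 0.0331 by edgeR). With 1 library omitted the count was 2 higher and 0 lower (without KO replicate 3), 1 higher and 0 lower (without het replicate 1, KO replicate 1 or KO replicate 2), 1 higher and 1 lower (without het replicate 2) or 3 higher and 1 lower (without KO replicate 4). Rlbp1 was called each time. Scaled to library totals 3 rose and 0 fell.

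The genes of the visual cycle that are most restricted to the pigment epithelium did not pass the test, and their lowest value was in KO replicate 3. Rpe65, the retinoid isomerase, was at 23.6 and 14.2 CPM in the hets and at 18.7, 16.4, 4.35 and 18.2 CPM in KO replicates 1 to 4. KO replicates 1, 2 and 4 lay between the hets, and KO replicate 3 lay far below them (log2 KO/het -0.38 ± 0.45 SE, adjusted p = 0.605 by edgeR). Lrat, which esterifies retinol, was at 24.2 and 16.0 CPM in the hets and at 23.4, 25.9, 4.62 and 13.9 CPM in the KO libraries (log2 KO/het -0.25 ± 0.51 SE, adjusted p = 0.773 by edgeR). Rgr, Stra6 and Ermn also had their lowest value in KO replicate 3, at 12.8, 1.72 and 2.17 CPM, against 42.7, 5.45 and 6.11 CPM or more in every other KO library. These 5 genes were picked after their values were seen. KO replicate 3 was the lowest of the 6 libraries in these 5 of the 12 genes and in 5.79% of all genes. It was not the lowest in the other 7, Krt18, Itgb5, Enpp2, Sulf1, Trpm3, Mertk and Rlbp1. With 1 library omitted the log2 fold change of Rpe65 ran from -0.84 (without het replicate 2) to -0.097 (without KO replicate 3), and that of Lrat from -0.63 to 0.043 with the same omissions. That of Rgr, -0.59 with all libraries, ran from -1.10 (without het replicate 2) to -0.12 (without het replicate 1).

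**Figure D4:**
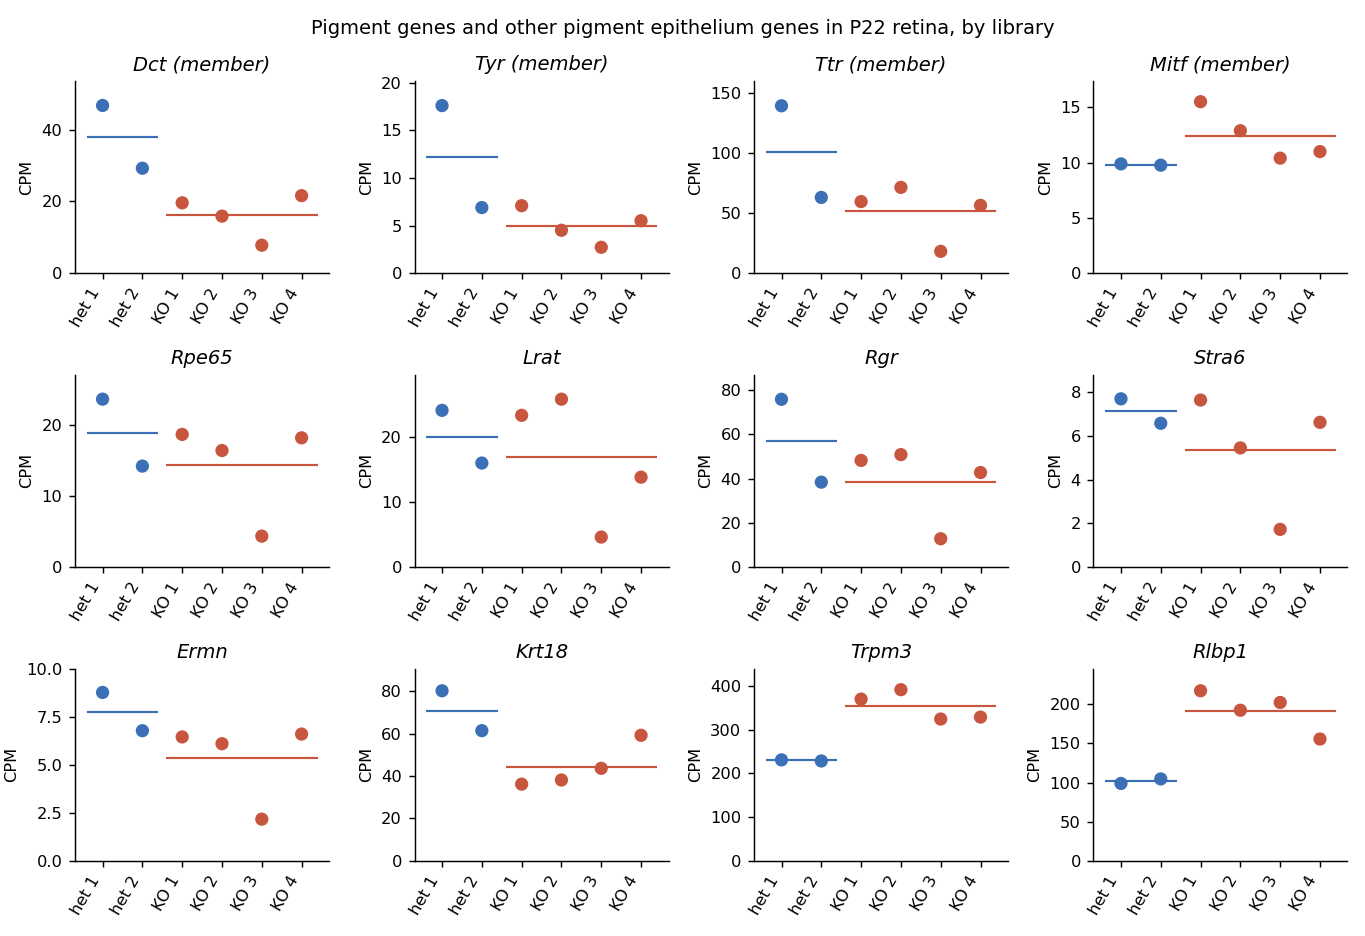
Level in CPM (y axis) in each P22 library (x axis), het in blue and KO in red, with lines at the group means, for the 4 pigment genes and 8 other pigment epithelium genes. KO replicate 3 is the lowest library for Dct, Tyr, Ttr, Rpe65, Lrat, Rgr, Stra6 and Ermn, but not for Mitf, Krt18, Trpm3 or Rlbp1.

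Set against Rpe65 in the same library, Dct was lower in every KO library than in either het, though set against Stra6 the groups overlapped. This ratio was chosen after the values were seen and is given as a description. Dct CPM over Rpe65 CPM was 1.98 and 2.06 in the hets and 1.05, 0.969, 1.79 and 1.19 in KO replicates 1 to 4. Both hets lay above all 4 KO libraries, and KO replicate 3, the lowest in Dct itself, was the KO library nearest to them. Its ratio rests on 86 Dct and 48 Rpe65 reads, and that of het replicate 1 on 85 and 43. By counting error alone (exact binomial, 95%) the ratio of Dct to Rpe65 could be 1.24 to 2.61 in KO replicate 3 and 1.35 to 2.92 in het replicate 1, so KO replicate 3 was not told apart from the hets. Tyr over Rpe65 was 0.744 and 0.485 in the hets and 0.380, 0.275, 0.625 and 0.303 in the KO libraries, so the groups overlapped. Ttr over Rpe65 ran from 4.45 to 5.91 in the hets and from 3.11 to 4.36 in the KO libraries. The gap between het replicate 2 (3.94 to 5.03) and KO replicate 2 (3.84 to 4.97) lay within counting error. Mitf over Rpe65 overlapped, with 0.419 and 0.688 in the hets and 0.605 to 2.40 in KO. Over all genes the ratio was lower in every KO library than in both hets for 0.0258% (3 genes: Dct, Ttr and Wfikkn2, the last chosen after its values were seen), and higher for 21.1%. The set was chosen by the P22 level of Dct, and Rpe65 was chosen as denominator after the values were seen. The low Rpe65 value of KO replicate 3 also raises the ratio of other genes in that library. These shares are therefore no measure of chance and give no support to the difference in Dct. Rgr over Rpe65 overlapped, with 2.70 to 3.21 in the hets and 2.35 to 3.10 in KO, as did Lrat, Stra6 and Ermn. The result depended on the denominator. Dct over Stra6 overlapped, with 86 and 19 reads in KO replicate 3 and 667 and 150 in het replicate 2. Dct over Lrat, Rgr or Ermn did not overlap. Ttr overlapped over Lrat, Stra6 or Ermn, and did not over Rgr. All these ratios were looked at after the values were seen.

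**Figure D5:**
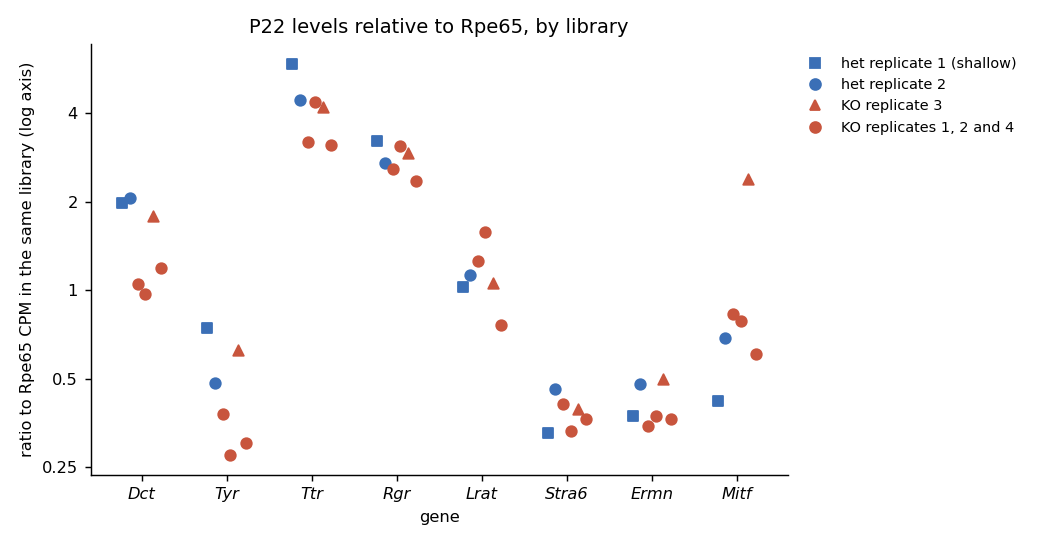
Level of each gene (x axis) as a ratio to Rpe65 CPM in the same P22 library (y axis, log scale), het in blue and KO in red, with squares for the shallow het replicate 1 and triangles for KO replicate 3. The hets lie above all KO libraries for Dct and Ttr, for both with a nearest gap within counting error, and the groups overlap for Tyr, Rgr, Lrat, Stra6, Ermn and Mitf. With Stra6 in place of Rpe65 the groups overlap for Dct and Ttr as well (not drawn).

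Of the other melanosome genes 12 of 22 were measured at P22, and 0 rose and 1 fell, where 6.41% of all genes were called lower. The gene that fell was Myo7a, a myosin of the pigment epithelium and of photoreceptors, from 71.9 to 47.7 CPM (log2 KO/het -0.73 ± 0.12 SE, adjusted p = 0.00772 by edgeR). Of the MITF relatives and regulators 0 of 6 were called by edgeR's quasi-likelihood test, 1 had an unadjusted p under 0.05, DESeq2 called 0, and limma-voom with sample weights called 1. Of the melanocyte lineage list Kit and Ednrb were measured, and Ednrb, an endothelin receptor also made by glia, rose from 3.30 to 9.46 CPM (log2 KO/het 1.24 ± 0.26 SE, adjusted p = 0.0167 by edgeR). Aqp1, a water channel of the choroid plexus and ciliary epithelium list, fell by 0.69 on the log2 scale (SE 0.16, edgeR adjusted p = 0.0215), as the 1 called gene of the 4 measured there. Of the retinol and thyroxine carriers, Rbp3, the retinoid carrier that photoreceptors secrete, fell by 0.99 on the log2 scale (SE 0.23, edgeR adjusted p = 0.0239). Ednrb and Aqp1 were not called without het replicate 2 or without KO replicate 1, nor was Rbp3, which was also not called without het replicate 1. Myo7a was called with any library omitted.

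Photoreceptor and glial markers moved with genotype at the same age, as did 1 gene of the endothelium list and 1 of the pericyte list. Over all genes edgeR called 6.41% lower and 4.74% higher in KO. Of 10 rod genes 9 fell and 0 rose, and the summed rod list was at 76223 to 79985.7 CPM in the hets and at 40786.4 to 51744.3 CPM in KO. The rod genes that fell most were Gnat1 (-1.18), Rom1 (-0.98), Nr2e3 (-0.96) and Pde6b (-0.95), as log2 fold changes. Of the 10 rod genes, 3 were called without het replicate 2, 5 without KO replicate 1 and 6 without het replicate 1. With those omissions 612, 344 and 1004 of all 11613 genes were called. Of 9 Müller glia genes 5 rose and 0 fell, and their sum was 1248 to 1388 CPM in the hets and 1824 to 2556 CPM in KO. The count was 3 without het replicate 2, KO replicate 1 or KO replicate 2, where 612, 344 and 590 of all genes were called. The Müller genes that rose most were Aqp4 (1.11), Slc1a3 (0.92), Kcnj10 (0.85) and Rlbp1 (0.78), as log2 fold changes. Of the choroid and vessel endothelium list 2 of 7 genes were measured, and Kdr, a receptor for vascular endothelial growth factor, rose from 73.1 to 135 CPM (adjusted p = 0.0172 by edgeR). Kdr was not called without het replicate 1 or without KO replicate 1. Pecam1, the other gene measured, averaged 7.67 CPM in the hets and 10.1 CPM in KO and was not called (adjusted p = 0.312 by edgeR). The summed list, mostly Kdr, was at 75.3 and 86.2 CPM in the hets and at 121 to 166 CPM in KO. Of the connective tissue and pericyte list 2 of 7 genes were measured, and Rgs5, a pericyte marker, rose from 36.2 to 76.0 CPM (adjusted p = 0.00657 by edgeR). With any library omitted 1 gene of this list was called, and the summed list was at 37.3 and 46.2 CPM in the hets and at 74.3 to 93.9 CPM in KO. In KO replicate 3, the library lowest in Dct, the rod sum was 51744.3 CPM and the Müller sum 2174 CPM, the highest and the third of the 4 KO libraries. The part of these shifts in the level of Dct, Tyr and Ttr was not tested.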

How the data were processed

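Total RNA of mouse retina was sequenced in 14 libraries. The submitters' processing notes name Trim Galore, STAR, HTSeq, edgeR and the build mm10, with no versions or settings; the use of strand in counting is not given in the sources used here. The authors deposited 1 table per age with whole-number read counts per gene. Per the file headers the tables also hold CPM values, the authors' log2 fold change and log2 mean CPM, and the p-value and false discovery rate of their test. Library totals were taken as count divided by deposited CPM. A floor of 3 reads is 0.151 to 0.200 CPM at P0 and 0.132 to 1.65 CPM at P22; floors and intervals cover counting error only, since reads carry no molecular identifiers.

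CPM printed here is reads per 1000000 of the library total. Genotypes were compared within each age with edgeR 4.0.16 (filterByExpr, which removed 0 genes, TMM, glmQLFit and glmQLFTest) in R 4.3.3, adjusted over all genes, with a threshold of 0.05. The standard error is the size of the log2 fold change divided by the square root of F. The test was tested on simulated data. Alternatives were DESeq2 1.42.0, limma 3.58.1 (voom with sample weights), other scalings and filters, a replicate block, and leaving out each library. Genes named outside the set are the called members of 13 lists (at most 4 per list and age) and the 10 genes most like the set at P0. Also named are Gm11454, the Pmel neighbours Cdk2 and Dgka, and others chosen after their values were seen. The last are Rpe65, Lrat, Rgr, Stra6, Ermn, Itgb5, Enpp2, Sulf1, Mertk, Wfikkn2, Kit and Pecam1 at P22, and at P0 the list genes named for their r. The set and the lists were chosen with earlier results of these data known. Positions and exon lengths are from GENCODE M21 (GRCm38), which matched 8 and 4 identifiers of the set with their version: Tyr on chromosome 7 (87424771 to 87493512), Tyrp1 on 4 (80834123 to 80851719), Dct on 14 (118012790 to 118052244), Pmel on 10 (128704195 to 128720238), Oca2 on 7 (56239760 to 56536518), Mitf on 6 (97807052 to 98021349), Best1 on 19 (9985174 to 10001633) and Ttr on 18 (20665280 to 20674321).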

Additional observations from a re-analysis of the deposited data

Results flagged for a closer look

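In groups of 4 libraries, the gap between the highest or lowest library and its nearest neighbour was compared with the range of the group for 20 combinations of gene and group. Pmel in the P0 hets was the 1 combination past the critical gap, with het replicate 1 at 20.7 CPM against 46.4 to 48.2 CPM in the other hets. Chance alone flags about 1 in 20 such groups.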

How the results depend on the processing

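The P0 count of called genes was 1 and became 2150 with limma-voom sample weights, 0 with a minimum mean of 1 CPM (the called gene was removed), and 0 to 2839 when 1 library was left out, with 2839 without KO replicate 3 and 0 without het replicate 1, 3 or 4. At P22 the count was 1295, 2675 with sample weights, and 344 (without KO replicate 1) to 1273 when a library was left out, with 590 without KO replicate 2 and 612 without het replicate 2. With library totals only, 1073 genes were higher and 415 lower at P22, against 551 and 744 under TMM. With the replicate number as a block the counts were 1 at P0 and 1760 at P22; the deviations of samples sharing a number correlated at -0.171 on average at P0 and 0.0575 at P22, so the numbers were not taken to pair samples. None of the 8 pigment genes was called at P0 under any alternative. Their P0 log2 fold changes changed sign in 6 of 120 cases, all when a library was left out. Tyr went to -0.072 and Oca2 to -0.13 without het replicate 1, Tyr to -0.13 and Oca2 to -0.22 without KO replicate 2, Oca2 to -0.050 without KO replicate 1, and Best1 to 0.055 without het replicate 3. The leave-one-out ranges were -0.13 to 0.35 for Tyr, -0.22 to 0.37 for Oca2, -0.50 to 0.055 for Best1, 0.21 to 0.53 for Tyrp1, 0.063 to 0.37 for Dct, 0.035 to 0.36 for Pmel, 0.018 to 0.47 for Ttr and 0.0017 to 0.19 for Mitf. At P22 none of the 4 changed sign in the 13 alternatives, with ranges of -1.66 to -0.98 for Dct, -1.95 to -0.60 for Tyr, -1.57 to -0.43 for Ttr and 0.11 to 0.36 for Mitf. Of the 10 genes most like the set at P0, 7 remained with TMM scaling, 10 with a pseudocount of 0.25 and 1 to 5 with a library left out. The count of 15 correlated pairs was 15 with TMM scaling and 9 to 15 with a library left out. Both alternatives for the pairs, and leaving out a library for the 10 genes, were chosen after seeing the data. Where calls changed, the cause was not tested. Depth limits P22 het replicate 1 most, where 18 Mitf reads allow 5.86 to 15.6 CPM.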
